A study of Drosophila melanogaster with 27 samples.

Results

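The genes described here exchange one dominant mRNA isoform for another while the Drosophila embryo passes from maternal to zygotic control. They were selected on measured values, the TPM of each isoform (a relative abundance corrected for transcript length and depth) in wild-type w embryos collected 0-1h and 2-3h after egg deposition. A gene other than hb qualified when its summed mean TPM was at least 10 at both ages, its leading isoform at 0-1h held at least 60% of the gene's TPM, and a different isoform held at least 60% at 2-3h. Of 17714 genes, 5113 passed the level requirement, 267 of these had different leading isoforms at the 2 ages, and 37 met the whole rule. The leading isoform of each age in w is called the 0-1h isoform or the 2-3h isoform throughout, also in the other genotypes. The w values at 0-1h and 2-3h chose the genes, so they are given as a description without a test.

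An early Drosophila embryo runs on mRNA that the mother loaded into the egg, and transcription from the embryo's own genome starts in earnest only after a series of rapid nuclear divisions. Maternal mRNAs are cleared around that time, through proteins that bind their 3′ UTRs and recruit deadenylases and through small RNAs made by the zygote. A gene that is both loaded by the mother and transcribed anew can therefore change its isoform, by the use of another promoter or of another polyadenylation site, or because one isoform is removed faster than the other. Nanos (Nos) is a repressor that acts in part with Pumilio on 3′ UTRs of maternal mRNAs.

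The libraries were made from poly(A) RNA of whole embryos, with 3 libraries in each of 9 groups. The 12 unsorted libraries came from w1118 (w) and from nos- embryos, whose mothers carried nosBN over the deficiency Df(3R)Exel6183, at 0-1h and 2-3h. The 15 sorted libraries came from methanol-fixed embryos hand-picked at nuclear cycle 9 to 10, from w and from mothers in which maternal alpha-Tubulin GAL4-VP16 drove a transgene for Upf1, Nos, the fusion Upf1-Nos or the mutant fusion Upf1-NosL7. Upf1 is a factor of nonsense-mediated decay, so the fusion tethers a decay factor to mRNAs that Nos contacts. L7 removes a C-terminal tail that Nos needs to reach hb mRNA, and every transgene carried the nos 3′ UTR. Upf1-Nos embryos had abnormal nuclei and were picked as being of roughly that age. The labels do not say whether the 3 libraries of a group came from separate collections, so p-values measure the spread between these libraries.

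Libraries held 15253032 to 21661085 counts in unsorted embryos and 14022879 to 22002028 in sorted embryos. The summed level of 10 early zygotic genes (Kr, gt, kni, ftz, eve, sna, twi, sog, zen and run) was 50.02 to 53.82 TPM in w at 0-1h, 760 to 856 TPM in w at 2-3h and 2.88 to 17.9 TPM in the sorted groups. That of 4 markers of later tissues (Hml, srp, elav and Mhc) was 5.60 to 14.57 TPM in w and 7.84 to 22.79 TPM in nos at 0-1h. It was 46.09 to 59.19 TPM in w at 2-3h and at most 0.46 TPM in sorted w. Both sums were thus higher in w at 0-1h than in sorted w, and whether the 0-1h collections held older embryos was not tested. Upf1 itself was at 88.7 to 200.3 TPM in the Upf1 libraries, 7.05 to 15.3 TPM in sorted w and 4.59 to 8.20 TPM in Upf1-Nos, so its level separates the Upf1 group but does not check the fusion. The level of nos was not analysed here. In sorted w, replicate 3 stood apart from its group, with 0-1h isoforms at 60% or more in 29 of the 37 genes against 21 and 23 in the others.

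The isoforms of these genes differed mostly at the 3′ end. With a difference of over 50 nt taken as a different end, the isoforms of 27 of the 37 genes (73.0%) differed only in the 3′ end, 5 differed only in the start (Adh, CG9775, Vha100-2, numb and siz), 3 in both (CycE, RhoGEF3 and atos), and 2 in neither (Akr1B and mbc). Among 3036 other genes that passed the level requirement, the leading pair of isoforms differed only in the 3′ end in 31.4%. The coding sequence was the same in 28 of the 37 pairs (75.7%), against 59.7% of the other genes. Where the 3′ ends differed, the 2-3h isoform ended further downstream in 27 of 30 genes. The 3 exceptions were Sod3, eIF4EHP and lqfR, whose isoforms end in different last exons.

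In 22 genes the 0-1h isoform lay wholly inside the 2-3h isoform, which adds 69 to 1981 nt (median 490.5 nt) to the 3′ UTR. The longest extension was in mahe, which encodes a DEAD-box RNA helicase and lies on chromosome X, where mahe-RC runs on the reverse strand from 7931382 to 7924139 and mahe-RB goes on to 7922158 (annotation BDGP6.54). The authors' program apportions reads between such nested isoforms by coverage of the extension, so a level of 0 says that all shared reads were given to the other isoform. Where starts differed, the 2-3h isoform began downstream in 7 of 8 genes. CG9775 (reverse strand of 3R) starts at 4641579 for CG9775-RA and at 4641076 for CG9775-RC, and both end at 4638010. CycE, the cyclin that drives entry into S phase, starts 16366 nt further into the gene for CycE-RB than for CycE-RA. In siz, an Arf guanine nucleotide exchange factor, the 2 starts lie 33353 nt apart.

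Exons of 4 genes overlap another gene on the same strand (Adh with Adhr, eIF4EHP with Syx1A, mura with lncRNA:CR42549, ssp2 with Nxf3), and exons of 7 overlap a gene on the other strand (CG7326, CycE, Nup154, Phm, Tnpo-SR, da and oys). Whether the counting used strand is not given in the sources used here, so for these genes the reads of the partner cannot be told apart.

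In w the 0-1h isoform differed between the ages in more genes than the 2-3h isoform. Its median level over the 37 genes was 46.2 TPM at 0-1h and 6.60 TPM at 2-3h, and its mean TPM was over 2-fold lower at 2-3h in 35 genes. The 2-3h isoform had a median of 12.4 TPM at 0-1h and 20.9 TPM at 2-3h, and its mean was over 2-fold higher at 2-3h in 16 genes and over 2-fold lower in 4. Summed over isoforms, 30 of the 37 genes were at a lower TPM at 2-3h than at 0-1h. The median share of the 0-1h isoform was 76.9% of gene TPM at 0-1h and 19.9% at 2-3h.

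**Figure D1:**
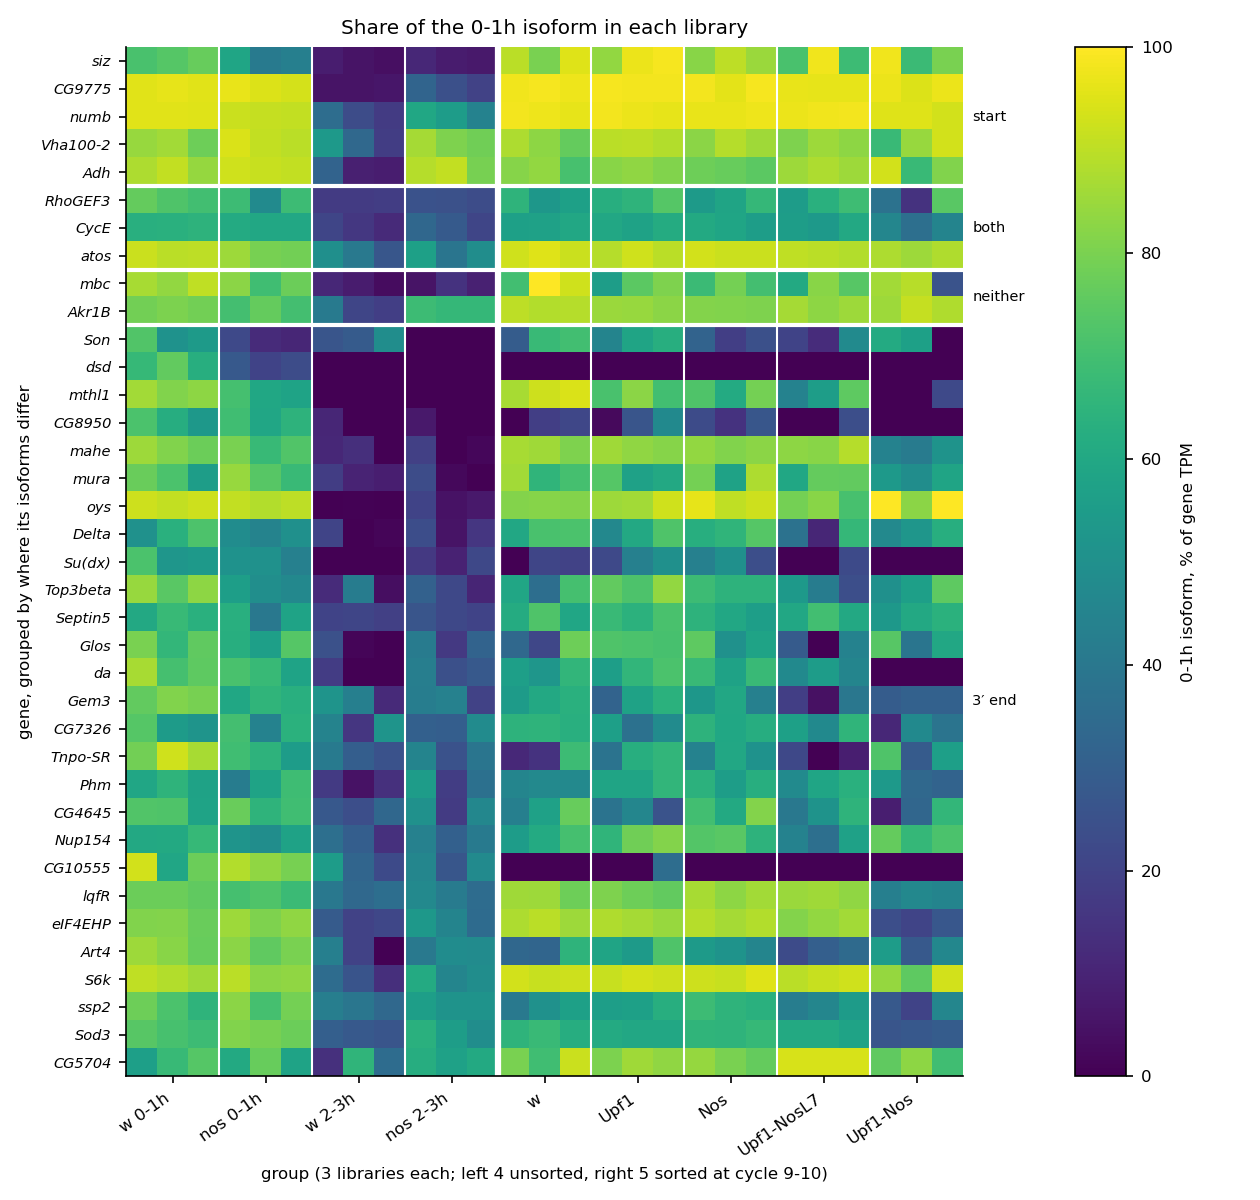
Heat map of the share of gene TPM held by the 0-1h isoform (colour, 0 to 100%) for the 37 genes (rows, grouped by where the isoforms differ) in all 27 libraries (columns, 3 per group). The w 0-1h and w 2-3h columns chose the genes, nos 2-3h lies between them for many genes (median 35.5% against 19.9% in w 2-3h), and da, Sod3 and eIF4EHP turn dark in Upf1-Nos.

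Ranked by the smaller of its 2 leading shares, the most complete exchange in w was that of oys, an acyltransferase of membrane phospholipids. oys-RA was at 73.4, 69.7 and 68.5 TPM at 0-1h and at 0, 0.13 and 0 TPM at 2-3h, while oys-RB was at 5.85, 7.13 and 5.40 TPM at 0-1h and 23.14, 21.97 and 31.63 TPM at 2-3h. All libraries of one age lay apart from those of the other for both isoforms, which the choice and ranking by these same values favour. Next in rank came mbc, a Rac exchange factor of myoblast fusion with a smaller share of 87.1%, Adh (alcohol dehydrogenase, 86.0%), CG9775 (85.9%), mthl1 (a Methuselah-like receptor, 83.6%), mahe (81.7%), Top3beta (topoisomerase 3β, 81.0%) and da (the bHLH factor daughterless, 78.5%).

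The most abundant genes at 2-3h included several whose 2-3h isoform was scarce at 0-1h. CG9775 had 483 TPM at 2-3h, of which CG9775-RC held 84.5% to 86.6% per library. CG9775-RC was at 374, 416 and 455 TPM there and listed at 0 in all 3 libraries at 0-1h. Septin5, a subunit of the septin cytoskeleton, had 463 TPM at 2-3h, with Septin5-RB at 27.8, 24.2 and 22.5 TPM at 0-1h and 326, 360 and 424 TPM at 2-3h. Septin5-RA was at 42.22, 50.02 and 38.99 TPM at 0-1h and 82.6, 95.4 and 98.6 TPM at 2-3h. Septin5-RA was the one 0-1h isoform with a higher mean at 2-3h in w, where Septin5-RB was higher still.

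Sod3 (an extracellular superoxide dismutase, 149.9 TPM at 2-3h), CycE (112.7 TPM), Delta (the Notch ligand, 104 TPM) and Adh (89.2 TPM) completed the 6 most abundant. CycE-RB was at 3.87, 4.23 and 3.52 TPM at 0-1h and 75.7, 77.0 and 78.3 TPM at 2-3h, while CycE-RA was at 191, 167 and 155 TPM and then at 26.8, 17.8 and 11.9 TPM. In Adh the new isoform was not more abundant. Adh-RE was at 71.0, 50.6 and 101 TPM at 0-1h and 40.3, 90.0 and 99.7 TPM at 2-3h, ranges that overlap, while Adh-RC was at 567, 612 and 605 TPM and then at 18.8, 8.71 and 8.72 TPM.

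**Figure D2:**
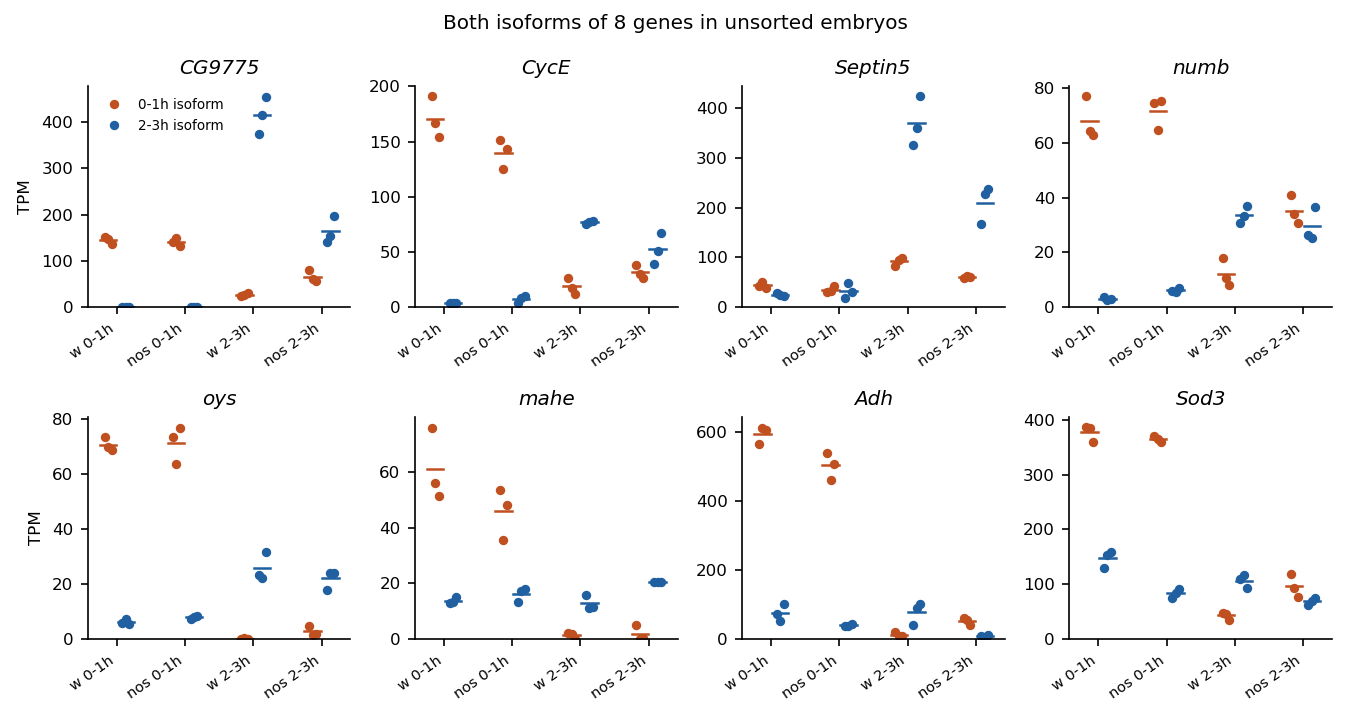
TPM (linear axis from 0) of the 0-1h isoform (orange) and the 2-3h isoform (blue) of 8 genes in the 12 unsorted libraries, with points for libraries and bars for the mean of 3. CG9775-RC is at 0 in all 6 libraries at 0-1h, Septin5-RB lies far above Septin5-RA at 2-3h, and in Adh the 2-3h isoform is at 4.48 to 9.47 TPM in nos 2-3h against 40.3 to 99.7 TPM in w 2-3h.

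The rule's threshold cut through a continuum. Just inside it were CG7326, with a smaller share of 60.2%, atos (60.3%) and Delta (60.6%), and just outside were dom (59.7%), Pino (59.6%) and Ugt316A1 (59.4%). Single libraries did not always follow the mean. CG5704-RA held 13.97%, 65.41% and 35.46% of its gene in the 3 w libraries at 2-3h and 56.6%, 67.5% and 73.7% at 0-1h, so the ages overlapped.

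The nos libraries did not enter the rule, and the change with age there could be tested. In nos embryos the 0-1h isoform fell in 27 of the 37 genes, where 16.7% of all 15528 isoforms tested fell. The 2-3h isoform rose in 14 of the 37, where 8.96% of all isoforms rose, and fell in 4 (Adh, Akr1B, Son and Vha100-2). The calls are from edgeR's quasi-likelihood test with an adjusted p below 0.05 and a log2 fold change beyond 1. The median log2 fold change was -1.85 for the 0-1h isoforms and 0.61 for the 2-3h isoforms, against 0.06 over all isoforms. With each library left out in turn, 20 of the 27 and 11 of the 14 were called in every fit.

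The 0-1h isoform fell while the 2-3h isoform rose in 9 genes, fell with no call for the 2-3h isoform in 14, and passed no test in 5 genes in which the 2-3h isoform rose (CG10555, Delta, Septin5, Tnpo-SR and numb). The usage of an isoform, its change relative to its gene, switched in both directions in 7 genes (CG9775, CycE, RhoGEF3, eIF4EHP, mbc, mthl1 and oys), against 0.885% of 3730 genes with a usage test. That count depends strongly on the method, since limma's diffSplice called the switch in 30 of the 37. The share of all genes that limma called is not given here, so the 30 cannot be set against 0.885%. When the selection rule was applied to nos alone, 15 genes met it and 13 were among the 37, which is 35.1% of the w genes and 86.7% of the nos genes. The other 2 were Rtel1 and CG31381.

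Among the isoforms that fell, 3 were listed at 0 in every nos library at 2-3h. dsd-RB was at 11.0, 6.59 and 9.56 TPM in nos at 0-1h, at least 734-fold lower at 2-3h as apportioned, against a floor of 3 counts over the group. mthl1-RA was at 12.6, 9.49 and 10.3 TPM (at least 694-fold lower at 2-3h), and Son-RB, of a gene related to human SON of the splicing machinery, was at 13.7, 6.86 and 6.68 TPM (at least 363-fold lower). The groups lay apart in all 3, as the naming of these isoforms required, and the longer isoform was present at both ages. Each of the 3 lies wholly inside that longer isoform. The floor therefore covers counting error only and not how the shared reads were apportioned. oys-RA was at 73.4, 63.5 and 76.6 TPM at 0-1h and at 4.73, 1.39 and 1.77 TPM at 2-3h, a log2 fold change of -4.70 (SE 0.48, adjusted p = 2.8e-05). The ages did not overlap.

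Among the isoforms that rose, CG9775-RC was listed at 0 in all 3 nos libraries at 0-1h and was at 142, 155 and 196 TPM at 2-3h, at least 3881-fold higher against the same floor. Su(dx)-RB, of a Nedd4-family ubiquitin ligase, was listed at 0 at 0-1h and was at 6.73, 6.20 and 8.63 TPM at 2-3h, at least 460.3-fold higher as apportioned. That bound does not cover how reads shared with other isoforms of the gene were apportioned. Su(dx) as a whole was lower at 2-3h (log2 fold change -1.02), so the rise of Su(dx)-RB was not a rise of the gene. CG9775-RC and Su(dx)-RB were likewise named among isoforms whose ages did not overlap. CycE-RB was at 3.86, 8.19 and 9.72 TPM and then at 38.9, 51.2 and 67.6 TPM, a log2 fold change of 2.94 (SE 0.31, adjusted p = 3.8e-05). numb-RA, of the Notch inhibitor that is inherited by one daughter in asymmetric divisions, rose by 2.35 on the log2 scale, from 5.82, 5.71 and 6.83 TPM to 26.4, 25.4 and 36.7 TPM.

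In the 4 genes whose 2-3h isoform fell, the 0-1h isoform fell as well. Adh-RE was at 36.0, 36.4 and 43.8 TPM in nos at 0-1h and at 6.96, 4.48 and 9.47 TPM at 2-3h (log2 fold change -2.40, SE 0.41, adjusted p = 0.00080). Adh-RC fell by 3.22 on the log2 scale and still held 88.8%, 90.7% and 79.6% of Adh in nos at 2-3h. Akr1B (an aldo-keto reductase) and Vha100-2 (a subunit of the vacuolar proton pump) likewise kept their 0-1h isoform in the lead, with shares of 66.5% to 68.5% and 78.2% to 86.7%.

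**Figure D3:**
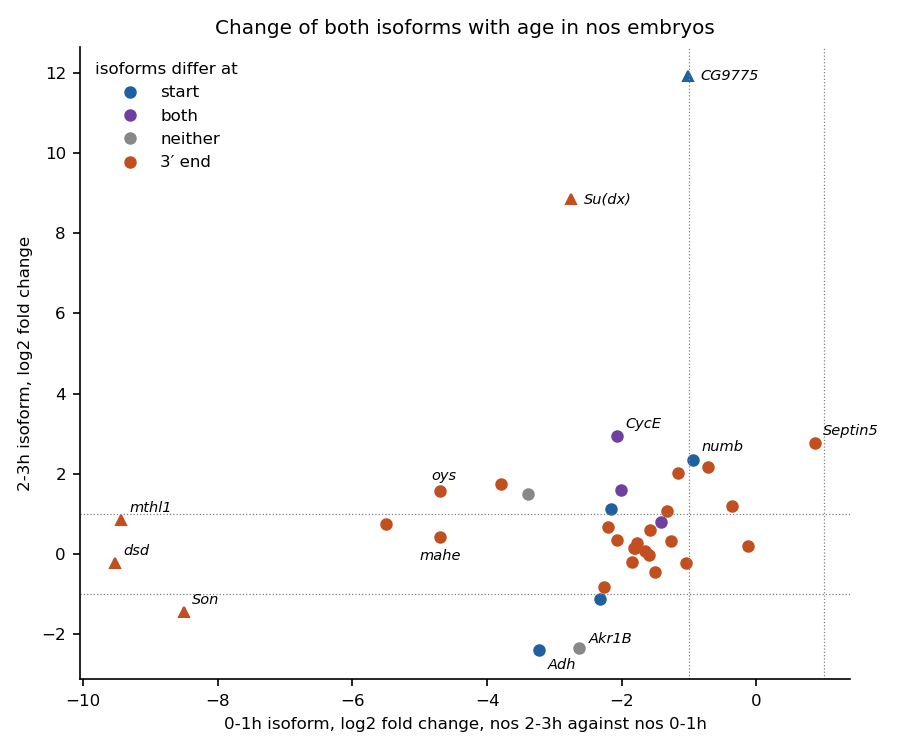
Log2 fold change with age in nos embryos of the 0-1h isoform (x) and the 2-3h isoform (y), 1 point per gene, coloured by where its isoforms differ. Dotted lines mark 1 and -1, and triangles are genes with an isoform listed at 0 in a whole group, drawn at the bound set by 3 counts. Nearly all points lie left of 0, CG9775 and Su(dx) lie highest, and Adh and Akr1B lie low on both axes.

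At 2-3h, nos embryos held more of the 0-1h isoform than w embryos in 12 of the 37 genes, where 11.6% of all isoforms were higher, and less in 2 (Son and Septin5), where 5.8% of all isoforms were lower. They held less of the 2-3h isoform in 7 genes (Adh, Su(dx), CG9775, Vha100-2, Akr1B, Septin5 and Sod3) and more in 1 (mahe). With a library left out, Septin5-RB lost its call in all 6 fits, mahe-RB without replicate 2 of either genotype, and Akr1B-RA without replicate 2 of w. Here a call needed an adjusted p below 0.05 and a log2 fold change beyond 0.5. The usage of the 0-1h isoform was higher in nos in 9 genes, against 1.23% of all isoforms with a usage test. Because the w libraries at 2-3h entered the rule, the choice of genes favours low 0-1h isoforms and high 2-3h isoforms in w, which is the direction of most of these calls.

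oys-RA was at 0, 0.13 and 0 TPM in w and at 4.73, 1.39 and 1.77 TPM in nos (log2 fold change 5.67, SE 0.75, adjusted p = 0.00067), so it remained low in both genotypes. Su(dx)-RF was listed at 0 in w and was at 6.12, 3.12 and 6.77 TPM in nos, at least 277-fold higher against the floor, and Su(dx)-RB was lower in nos (6.73, 6.20 and 8.63 TPM against 27.3, 20.8 and 22.2 TPM, log2 fold change -1.85). Su(dx) as a whole was not called (log2 fold change -0.05), and the bound for Su(dx)-RF does not cover how shared reads were apportioned. In nos, Su(dx)-RF held 9.67% to 21.5% of the gene, Su(dx)-RB 18.5% to 27.4%, and isoforms outside the pair the rest. Phm-RB, of an enzyme that amidates neuropeptides, was at 2.51, 0.72 and 1.97 TPM in w and at 12.7, 3.11 and 6.92 TPM in nos (log2 fold change 1.97, SE 0.51, adjusted p = 0.020). These isoforms were named among those whose genotypes did not overlap, so their separation is no added support. Phm-RB lost its call without replicate 1 of nos or replicate 2 of w.

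Adh differed between the genotypes in both isoforms. Adh-RC was at 18.8, 8.71 and 8.72 TPM in w and 58.8, 54.1 and 39.6 TPM in nos (log2 fold change 1.96, SE 0.24, adjusted p = 0.00050). Adh-RE was at 40.3, 90.0 and 99.7 TPM in w and 6.96, 4.48 and 9.47 TPM in nos (log2 fold change -3.64, SE 0.42, adjusted p = 0.00034). CG9775 differed in the same directions, with CG9775-RA at 23.4, 26.1 and 31.3 TPM in w and 79.6, 60.7 and 57.0 TPM in nos, and CG9775-RC lower in nos (log2 fold change -1.49, SE 0.17, adjusted p = 0.0023). Son went the other way, since Son-RB was at 5.23, 3.67 and 5.97 TPM in w and listed at 0 in all nos libraries, at least 239-fold lower against the floor. That bound does not cover how reads shared with Son-RA were apportioned.

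Summed over isoforms, 3 of the 37 genes were higher in nos at 2-3h (CG7326, Vha100-2 and mahe), where 18.6% of all genes were higher, and 5 were lower (Adh, CG10555, CG9775, Septin5 and siz), where 8.8% of all genes were lower. The count of 12 rested in part on replicate 1 of w at 2-3h, without which 19 genes had a higher 0-1h isoform in nos and 14 a higher usage of it. That library had the highest median share of 0-1h isoforms of its group (24.7% against 19.5% and 13.6%) and the highest summed level of 9 maternal mRNAs (2184 TPM against 1601 and 1302 TPM).

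Stage markers moved with the genotype at 2-3h. The 10 early zygotic genes summed to 478 to 657 TPM in nos and 760 to 856 TPM in w, and 5 of the 10 were lower in nos. The 9 maternal mRNAs summed to 2246 to 2820 TPM in nos and 1302 to 2184 TPM in w, and 4 of the 9 were higher in nos. In RNA of whole embryos a lower level per embryo and fewer embryos of the labelled age cannot be told apart. The part of these differences in the isoform levels was not tested.

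At 0-1h the 0-1h isoform was lower in nos than in w in 4 genes (Son, Akr1B, dsd and mthl1), where 4.4% of all isoforms were lower. The call of mthl1-RA was lost in 5 of 6 fits with a library left out. The median share of the 0-1h isoform was 67.3% to 70.4% in the nos libraries and 73.6% to 78.0% in the w libraries, which entered the rule. Akr1B-RD was at 437, 474 and 451 TPM in w and at 137, 123 and 139 TPM in nos (log2 fold change -1.64, SE 0.20, adjusted p = 0.00086), and Son-RB was at 57.6, 32.0 and 33.5 TPM in w and at 13.7, 6.86 and 6.68 TPM in nos (log2 fold change -2.03, SE 0.37). The groups did not overlap for either isoform, as their naming required. The choice of genes favours high 0-1h isoforms in w at this age.

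The 2-3h isoform was higher in nos at 0-1h in 10 genes, where 7.66% of all isoforms were higher, and lower in 4 (Su(dx), Akr1B, Vha100-2 and Sod3), where 4.4% were lower. The rule kept 2-3h isoforms that were low in w at 0-1h, so the choice of genes favours the direction of the 10. Top3beta-RB was at 12.03, 15.25 and 9.44 TPM in w and at 37.4, 37.0 and 42.9 TPM in nos (log2 fold change 1.81, SE 0.24, adjusted p = 0.0011). Tnpo-SR-RB, of the importer of SR proteins, was higher by 1.40 on the log2 scale, and dsd-RC by 1.32 (15.8, 8.77 and 13.8 TPM in w against 28.6, 25.9 and 31.7 TPM in nos). Every nos library lay above every w library for these 3, as their naming required, but the call of Tnpo-SR-RB was lost without replicate 2 or 3 of nos or replicate 3 of w. Of the 10, 7 were called in every fit with a library left out, CycE, Son and Tnpo-SR being the exceptions. Of the 4 lower, 2 were, since Akr1B-RA lost its call in 5 of 6 fits and Vha100-2-RB in 3, and 2 calls were left without replicate 3 of w. The strongest opposite case was Su(dx)-RB, which was at 29.1, 30.5 and 27.5 TPM in w and listed at 0 in nos, at least 1609-fold lower as apportioned. That bound does not cover how reads shared with other isoforms of the gene, such as Su(dx)-RF that lies wholly inside it, were apportioned. Su(dx) as a whole was not called there (log2 fold change -0.02). In nos at 0-1h, Su(dx)-RF held 43.55% to 50.9% of the gene and isoforms outside the pair held the rest. The early zygotic genes summed to 54.7 to 120 TPM in nos against 50.02 to 53.82 TPM in w at 0-1h, with 8 of the 10 higher in nos. Of the 4 markers of later tissues, 2 were higher in nos at 0-1h. The part of these stage markers in the isoform differences was not tested.

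The sorted embryos, at nuclear cycle 9 to 10, are a separate experiment whose values were scaled separately, so its levels are set beside the unsorted ones without a test. In sorted w the 0-1h isoform held at least 60% in 22 of the 37 genes and the 2-3h isoform in 5, with a median share of 64.4% for the 0-1h isoform. Some genes stood at their 0-1h state, such as CG9775, where CG9775-RC was at 0, 0 and 0.22 TPM, and oys, where oys-RA held 81.3% to 81.8%. Others did not. dsd-RB was listed at 0 in all 15 sorted libraries and CG10555-RA in all but 1, although their genes were dominated by these isoforms in unsorted w at 0-1h.

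The 0-1h isoform was lower in Upf1-Nos than in w in 23 of the 34 genes counted, where 32.8% of all isoforms were lower. The 2-3h isoform was lower in 12 of 33 (36.4%), a share near that of all isoforms. Genes are counted when the isoform was tested and did not change in Upf1 alone. The median log2 fold change was -2.35 for the 0-1h isoforms and -0.98 for the 2-3h isoforms, against -0.50 over all isoforms, so that the medians lay 1.85 and 0.48 below that of all isoforms. With each library left out in turn, 21 of the 23 and 10 of the 12 were called in every fit. The scale for Upf1-Nos rests on 21 isoforms the authors listed, without which the median of all isoforms was -0.02 and the counts were 23 and 9. The share of all isoforms lower on that other scale is not given here, so these 2 counts cannot be set against 32.8%. Maternal markers moved the same way, with 6 of 9 lower in Upf1-Nos and a summed level of 2658 to 3803 TPM against 5055 to 6746 TPM in w, and their part in the isoform counts was not tested.

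At the level of whole genes, 23 of the 37 were lower in Upf1-Nos, where 39.7% of all genes were lower. Of the 31 genes with both isoforms counted, both were called lower in 9, the 0-1h isoform alone in 11, the 2-3h isoform alone in 3, and neither in 8. Some isoforms without a call were near 0 already in w, such as mbc-RA at 1.49, 0 and 0.99 TPM, where a missing call says little.

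da-RA, the isoform of daughterless with the shorter 3′ UTR, showed the largest difference. It was at 39.5, 45.2 and 60.4 TPM in sorted w and rounded to 0 counts in all Upf1-Nos libraries, at least 1977-fold lower against the floor, while da-RB was lower too, at 30.5, 41.0 and 31.3 TPM in w and 8.38, 4.22 and 7.19 TPM in Upf1-Nos (log2 fold change -2.75, SE 0.27, adjusted p = 1.6e-06). The bound for da-RA does not cover how reads shared with da-RB, which contains it, were apportioned. In Upf1-NosL7, da-RA was at 25.7, 28.8 and 27.4 TPM. Both isoforms of oys were lower, with oys-RA at 18.3, 25.2 and 25.9 TPM in w and 1.04, 0.38 and 1.10 TPM in Upf1-Nos (log2 fold change -5.15, SE 0.29), and oys-RB at 1.46, 3.37 and 5.95 TPM in w and listed at 0 in Upf1-Nos. mthl1-RA was at 5.96, 7.81 and 11.8 TPM in w and at 0, 0 and 0.30 TPM in Upf1-Nos (log2 fold change -6.72, SE 0.90, adjusted p = 2.8e-05). No library of Upf1-Nos overlapped w for these isoforms, which for da-RA, oys-RB and mthl1-RA was a condition of naming them.

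Usage changed in Upf1-Nos in 8 of the 35 genes with a usage test (da, Su(dx), mthl1, eIF4EHP, CG7326, Sod3, mahe and lqfR), 22.9%, against 8.96% of 3249 genes, and each time the usage of the 0-1h isoform was lower. The excess over all genes depends on the fit, since 4 genes were called when only these 2 groups were fitted. Su(dx)-RF was at 0, 7.31 and 10.95 TPM in sorted w and at 0 in all Upf1-Nos libraries, so its groups overlapped. Its call as lower was lost in 3 of 6 fits with a library left out. All 8 were among the 25 tested genes whose isoforms differ only in the 3′ end, and they included the 3 genes with different last exons, a grouping chosen after the values were seen. The other 10 genes had no usage call by edgeR, and a test of the difference between these kinds of genes was not run. Several of their 2-3h isoforms were near 0 already in sorted w, so the lack of a call says little there. CycE-RB was at 0 TPM in all 3 libraries, CG9775-RC at 0, 0 and 0.22, numb-RA at 0, 0.53 and 1.55, and siz-RC at 0.84, 1.99 and 0.79. Adh-RE, Akr1B-RA and Vha100-2-RB were at 11.36 TPM or more. eIF4EHP, a cap-binding protein that represses translation of maternal mRNAs in the fly embryo, shows the pattern. eIF4EHP-RA was at 64.6, 67.4 and 81.0 TPM in w and 5.86, 3.61 and 5.80 TPM in Upf1-Nos (log2 fold change -4.16, SE 0.17, adjusted p = 5.8e-10), while eIF4EHP-RB was at 8.95, 7.66 and 13.7 TPM in w and 18.3, 13.7 and 15.5 TPM in Upf1-Nos (log2 fold change 0.31, SE 0.19, adjusted p = 0.19).

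The share of eIF4EHP-RA was therefore 85.2% to 89.5% in sorted w, 81.5% to 86.2% in Upf1-NosL7 and 20.55% to 26.96% in Upf1-Nos. Sod3-RD was likewise at 455, 467 and 391 TPM in w and 60.2, 51.9 and 63.6 TPM in Upf1-Nos (log2 fold change -3.28, SE 0.18), whereas Sod3-RA was at 235, 215 and 230 TPM in w and 161, 133 and 150 TPM in Upf1-Nos (log2 fold change -0.98, which missed the fold threshold). lqfR-RC, of an epsin-related gene, was at 48.8, 56.1 and 69.7 TPM in w and lower in Upf1-Nos, at 20.9, 13.9 and 20.6 TPM, and lqfR-RD was at 8.25, 9.56 and 19.5 TPM in w and 27.5, 15.9 and 25.2 TPM in Upf1-Nos (log2 fold change 0.57, adjusted p = 0.075). Both isoforms were lower in 9 genes, of several kinds, among them Vha100-2, whose isoforms differ in the start, with log2 fold changes of -2.99 (SE 0.17) and -2.88 (SE 0.51), and CG4645, CG7326, Phm, S6k, da and oys, whose isoforms differ in the 3′ end. In numb and siz, which also differ in the start, the 0-1h isoform alone was called lower. Their 2-3h isoforms were near 0 already in sorted w, so the missing call does not show that these were spared.

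**Figure D4:**
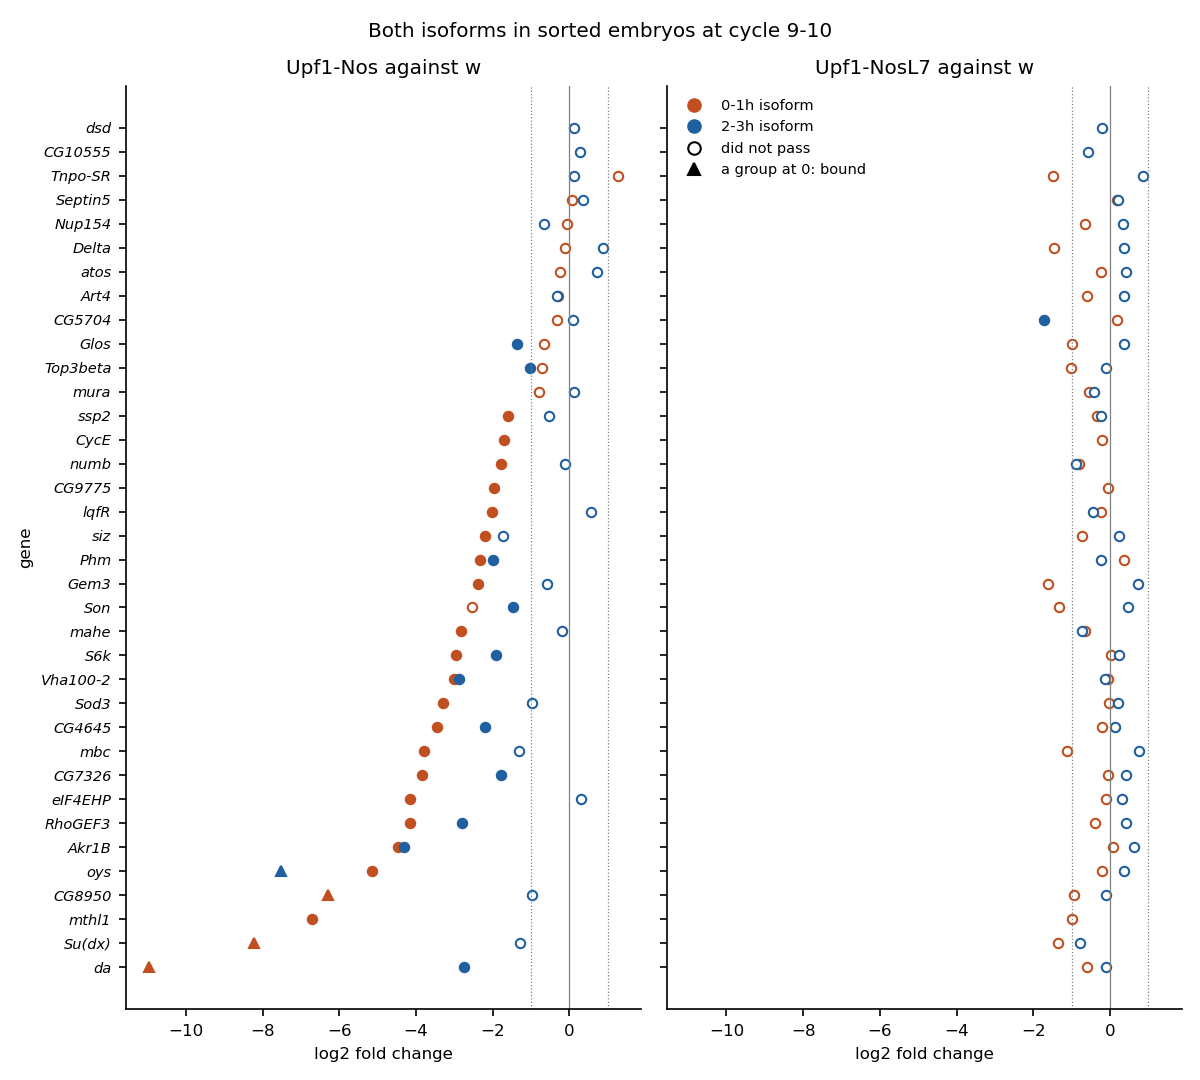
Log2 fold change against sorted w of the 0-1h isoform (orange) and the 2-3h isoform (blue) of each gene in Upf1-Nos (left) and Upf1-NosL7 (right), with genes ordered by the 0-1h isoform in Upf1-Nos. Filled symbols passed the test, triangles are bounds for an isoform listed at 0 in a whole group, and dotted lines mark 1 and -1. Orange points spread far left in Upf1-Nos and lie nearer to 0 in Upf1-NosL7, 29 of 34 of them below it, where CG5704-RB is the filled point.

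Few of these isoforms differed from w in the control genotypes. In Upf1-NosL7, edgeR's quasi-likelihood test called 0 of 34 0-1h isoforms, where 0.985% of all isoforms were higher and 0.632% lower, with 8 of them lower at an unadjusted p below 0.05 and 3 called by DESeq2. Of the 2-3h isoforms CG5704-RB was lower, at 2.22, 2.08 and 2.04 TPM against 8.25, 11.1 and 3.88 TPM in w (log2 fold change -1.72, adjusted p = 0.035), a call that was lost without any of 5 of the 6 libraries compared. The median log2 fold change of the 0-1h isoforms was -0.47 in Upf1-NosL7, with 29 of 34 below 0, against -0.02 over all isoforms.

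In Nos, edgeR called 0 of 35 0-1h isoforms, where 2.47% of all isoforms were higher and 2.52% lower, with 6 at an unadjusted p below 0.05 and 1 called by DESeq2. Su(dx)-RB was lower there, at 0.04, 0.14 and 4.59 TPM against 23.4, 23.3 and 42.7 TPM in w (log2 fold change -4.27, SE 1.01, adjusted p = 0.018), as was CG10555-RB (log2 fold change -1.03), and mthl1-RB was higher (log2 fold change 1.51). In Upf1 alone Adh-RC and Adh-RE were lower (log2 fold changes -1.09 and -1.38), where 1.21% of all isoforms were lower, and mthl1-RB was higher (log2 fold change 2.04), where 1.5% were higher. Each of these calls except that of Su(dx)-RB was lost when 1 or more of the libraries was left out.

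Set against Upf1-NosL7 in place of w, a comparison added after the data were seen, 22 of 35 0-1h isoforms and 15 of 35 2-3h isoforms were lower in Upf1-Nos, where 32.4% of all isoforms were lower. Higher in Upf1-Nos were lqfR-RD (log2 fold change 1.01, adjusted p = 0.0045) and CG5704-RB (log2 fold change 1.82, adjusted p = 0.0031), where 3.79% were higher.

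Of the 12 genes whose 0-1h isoform was higher in nos than in w at 2-3h, 11 had a lower 0-1h isoform in Upf1-Nos, which is 91.7% of the first list and 47.8% of the 23 on the second. Adh, the remaining gene, was not counted because it changed in Upf1 alone. The 2 comparisons share no library, and over all counted genes 67.6% of 0-1h isoforms were lower in Upf1-Nos.

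Lower shares of the shorter isoform at 2-3h were also measured outside the 37 genes. In 681 other genes that passed the level requirement and whose leading isoforms differ only by a 3′ extension, the shorter isoform held a median of 82.4% to 87.0% of the pair in w libraries at 0-1h and 75.8% to 78.4% at 2-3h. Its share was lower at 2-3h in 558 of the 681 (81.9%) in w and in 586 of 675 (86.8%) in nos, with median differences of -3.64 and -4.26 percentage points. The 22 nested genes among the 37 showed the same direction by selection, with medians of 72.0% to 78.3% and 7.88% to 24.8% in w. In nos, which the rule did not use, their medians were 64.9% to 70.3% at 0-1h and 23.1% to 42.1% at 2-3h, against 81.6% to 85.3% and 74.4% to 77.9% in the other genes.

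In sorted embryos the 22 nested genes were also followed. Their median share of the shorter isoform was 50.2% and 54.8% in 2 w libraries and 69.0% in replicate 3, 56.1% to 67.8% in Upf1, 60.7% to 68.3% in Nos, 39.4% to 51.4% in Upf1-NosL7 and 33.3% to 46.0% in Upf1-Nos, while the medians of the other genes, a far larger set, lay between 73.3% and 82.4% in all 15 libraries. Without replicate 3 of w, 22 of the 0-1h isoforms and 12 of the 2-3h isoforms were lower in Upf1-Nos. The share of all isoforms lower in that fit is not given here.

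**Figure D5:**
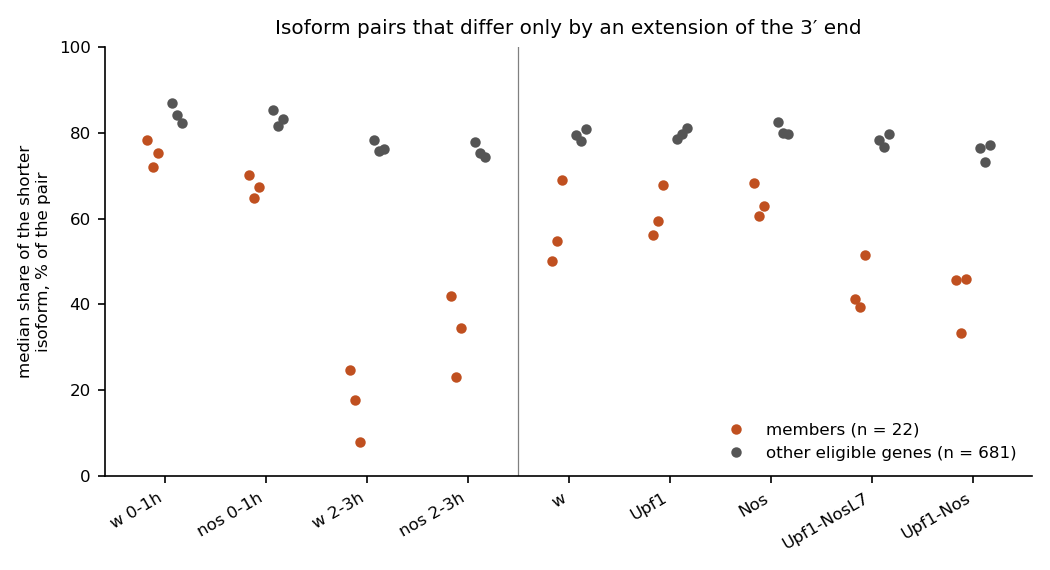
Median share of the shorter isoform (y, % of the TPM of the pair) in each library (points, 3 per group) for the 22 nested genes of the 37 (orange) and for 681 other genes whose leading isoforms differ by a 3′ extension (grey). Grey points lie between 73.3% and 87.0% everywhere, and orange points lie at 7.88% to 24.8% in w 2-3h, whose values chose the genes, and at 23.1% to 42.1% in nos 2-3h.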

How the data were processed

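Embryo RNA was sequenced as paired-end reads of poly(A)-selected libraries. The authors removed ribosomal, transfer and mitochondrial RNA reads and estimated isoform abundance with RSEM; the submitters' processing notes list STAR 2.5.3a, RSEM 1.3.0, R 4.2.1 and edgeR 3.40.2. The deposited expected counts per isoform, which RSEM estimates from reads shared between isoforms, were rounded to whole numbers. The deposited TPM values of the authors, scaled by transcript length and depth, gave levels and shares. Isoforms were assigned to genes and exons by ID in the annotation BDGP6.54, a later release than that used for counting.

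The members, gene lists and tests were chosen with earlier results of these data known. Isoforms passing filterByExpr (minimum count 30) were fitted by edgeR 4.0.16 (R 4.3.3), with TMM factors, a quasi-likelihood test over all isoforms of the unsorted or sorted libraries, and Benjamini-Hochberg adjustment. Upf1-Nos libraries took their factors from 21 isoforms the authors listed for that purpose, and isoforms called in Upf1 alone were left out for both fusions. Usage was tested with diffSpliceDGE. Calls needed an adjusted p below 0.05 and a log2 fold change beyond 1, or 0.5 for nos against w. Alternatives used DESeq2 1.42.0, limma 3.58.1, other filters and scaling, a replicate block, and each library left out. All 3 same-numbered pairs of libraries correlated above 0.1 only for nos and w at 0-1h (0.110 to 0.122). Single pairs of other comparisons were higher, and those of Upf1 and w ranged from 0.0229 to 0.297. With the replicate block at 0-1h, all 4 calls of 0-1h isoforms and all 14 of 2-3h isoforms were made again and 1 was added (Glos-RB). The code was tested on simulated data. Named genes were the 8 most complete exchanges, the 6 most abundant at 2-3h, the 3 largest called changes per direction and comparison among isoforms whose groups did not overlap, and 3 on each side of the threshold; others were chosen after their values were seen.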

Additional observations from a re-analysis of the deposited data

How the results depend on the processing

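Of 111 alternatives to 16 results, other than left-out libraries, 99 gave counts within 1.5 times the reported one and 12 did not; the causes were not tested. The number of switching genes was 135 with a share threshold of 50%, 15 with 70% and 24 with a summed TPM of 20, and 32 to 44 with 1 w library left out. Shares from expected counts gave 40 genes, of which 30 were shared. The switch of usage in nos was called by limma's diffSplice in 30 genes, against 7 by edgeR (5 to 9 with a library left out). For limma the share over all genes is not given here. Usage changed in Upf1-Nos in 4 genes when only the 2 groups were fitted (6 to 8 with a library left out, against 8). For the 0-1h isoforms in Upf1-NosL7, 2 were called on adjusted p alone and 3 by DESeq2, against 0 (0 to 1 with a library left out). In Nos, 1 was called with DESeq2 size factors, 1 on adjusted p alone and 1 by DESeq2, against 0 (0 to 1). In Upf1, 2 were called on adjusted p alone and 0 with only the 2 groups, against 1 (0 to 3). At 2-3h, the 0-1h isoform was higher in nos than in w in 10 to 19 genes with a library left out, and its usage in 8 to 14, the highest both without replicate 1 of w. At 0-1h, the 2-3h isoform was higher in nos in 7 to 12 genes and lower in 2 to 4 with a library left out, alternatives added after the data were seen.

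With the replicate block, nos against w at 2-3h gave 16 higher 0-1h isoforms, 9 lower 2-3h isoforms and 11 shifts of usage. Upf1-Nos gave 10 lower 2-3h isoforms and 7 changes of usage. Same-numbered libraries did not all correlate above 0.1 in these comparisons (0.0394 to 0.141 and -0.0632 to 0.0910). Depth limits the isoforms listed at 0, whose bounds rest on 3 counts over a group. These bounds cover counting error only, not the apportioning of reads between isoforms of a gene.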
